A study of Caenorhabditis elegans with 2 samples.

Results

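ATTF-6 regions were described at 9 genes of Caenorhabditis elegans whose products build the centromere, the kinetochore and the centriole: hcp-3, hcp-4, knl-2, knl-1, sas-6, sas-5, sas-4, zyg-1 and spd-2. They are 9 of the 19973 protein-coding genes on the 6 chromosomes in Ensembl release 115. They were selected for their roles in cell division with earlier results of the same peak lists known, and those results included which of them held a region, so the counts and signals below are descriptions and support nothing by themselves. For each gene, every summit from 1000 bp upstream of its start to its end was taken from the lists that pool both samples, together with the nearest other gene and the call in each sample's own list.

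The study mapped ATTF-6, a protein with AT hooks, on the chromatin of young adults by ChIP-seq. The 2 samples are biological replicates 1 and 2 of 1 group: whole worms of 1 strain, aged 64 hours, in which a CRISPR insertion fuses TY1, EGFP and 3xFLAG tags to attf-6. The worms had been synchronised as L1 larvae starved after bleaching, their sex was not recorded, and sonicated chromatin of 200 to 800 bp was precipitated with an antibody against GFP. There is no second genotype, age or treatment, a named control experiment was not analysed here, and every tissue of the animal contributed chromatin.

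Chromosomes of C. elegans are holocentric, which means that spindle microtubules attach along their whole length. HCP-3, the worm's CENP-A, replaces histone H3 in centromeric nucleosomes, KNL-2 is needed to load it, HCP-4 is the CENP-C homologue that links it to the kinetochore, and KNL-1 is a scaffold of the microtubule-binding outer kinetochore. Centrioles, the cores of the centrosomes that organise the spindle, are built by a short pathway in which SPD-2 recruits the kinase ZYG-1, SAS-5 and SAS-6 then form the inner scaffold, and SAS-4 helps to add the centriolar microtubules. An AT hook is a short peptide that contacts the minor groove of A+T-rich DNA.

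The sequences under 4 of the summits are shown as examples. They are the strongest called regions of hcp-3 and sas-6 and, for comparison, the strongest summits of sas-5 and zyg-1. Among the strongest summits of the other 6 genes, those of sas-5 and zyg-1 lie closest upstream of the start of their own gene. Neither is in the conservative list. A weaker region of spd-2, 76 bp upstream of its start, is not printed. Each of the 4 sequences carries a run of alternating G and C. The windows of hcp-4 and sas-4 also lie upstream of the start and hold such a run, and they are not printed. Past the start, the strongest window of knl-2 holds GCGCG and those of knl-1 and spd-2 do not, and none of them is printed. The printed sequences are from the RefSeq genome of assembly WBcel235 (ce11), written on the strand of the named gene. Capitals mark GCGCG and its reverse complement CGCGC. Overlapping places are counted separately, so a single longer run can hold several. The hcp-3 sequence is the whole called region at chrIII:9617040-9617201 on the minus strand, with 5 such places. The sas-6 sequence is the whole called region at chrIV:13788744-13788889 on the minus strand, with 2. The sas-5 sequence spans 50 bp to either side of the summit, at chrV:11610612-11610712 on the plus strand, with 4, and the zyg-1 sequence spans 50 bp to either side at chrII:5649556-5649656 on the plus strand, with 1. The last is the stretch upstream of cpar-1, a paralogue of hcp-3 that also encodes a centromeric histone, at chrIII:9433739-9433905 on the plus strand, the 1 other place in the genome that matched the sequence within 100 bp of the hcp-3 summit.
hcp-3: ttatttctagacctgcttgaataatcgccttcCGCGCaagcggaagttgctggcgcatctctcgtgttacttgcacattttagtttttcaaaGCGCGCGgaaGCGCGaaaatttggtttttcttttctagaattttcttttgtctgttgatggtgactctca
sas-6: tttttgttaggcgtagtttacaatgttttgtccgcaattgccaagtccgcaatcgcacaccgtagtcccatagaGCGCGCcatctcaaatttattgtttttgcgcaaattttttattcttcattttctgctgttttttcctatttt
sas-5: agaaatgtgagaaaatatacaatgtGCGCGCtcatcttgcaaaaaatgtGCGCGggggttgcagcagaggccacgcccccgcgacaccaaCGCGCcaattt
zyg-1: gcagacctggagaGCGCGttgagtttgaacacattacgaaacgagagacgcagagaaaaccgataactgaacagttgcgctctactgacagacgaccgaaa
cpar-1: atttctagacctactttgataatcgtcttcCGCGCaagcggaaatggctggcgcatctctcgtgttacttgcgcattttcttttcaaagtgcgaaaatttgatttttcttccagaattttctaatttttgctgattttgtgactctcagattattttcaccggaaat

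Of the 9 genes, 3 had a summit of the conservative joint list in the window: hcp-3, hcp-4 and sas-6. Over all 19973 protein-coding genes, 1269 had one, or 6.35%. The conservative list holds 2134 regions, all with a global irreproducible discovery rate (IDR, an estimate of how often regions this strong fail to recur between replicates) below 0.01. The same 3 genes, and none of the other 6, were called in the list of replicate 1 alone, in that of replicate 2 alone and in both. The share of all genes was 4.09% in replicate 1, 3.59% in replicate 2 and 2.65% in both. In the other joint list sas-5 was added, which made 4 of the 9 genes beside 6.77% of all genes. At a global IDR of 0.05 in the joint ranked list knl-1 was added as well, which made 5 of 9 beside 11.0% of all genes.

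The joint ranked list, which is not thresholded, holds 79981 regions and gave all 9 genes at least 1 region, 55 in all. Of these, 5 stand in the conservative list, and the highest signal among the other 50 was 55.6. Signals are the values deposited with each region, on a scale not given in the sources used here. They ranged from 29.5 to 226 over the strongest regions of the 9 genes, with a median of 51.2. Over the 15238 protein-coding genes with any ranked region in the window the median was 32.2. Windows differ in length, with a median of 4106 bp for the 9 genes and 3027 bp for all genes, and a longer window can hold more regions.

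**Figure D1:**
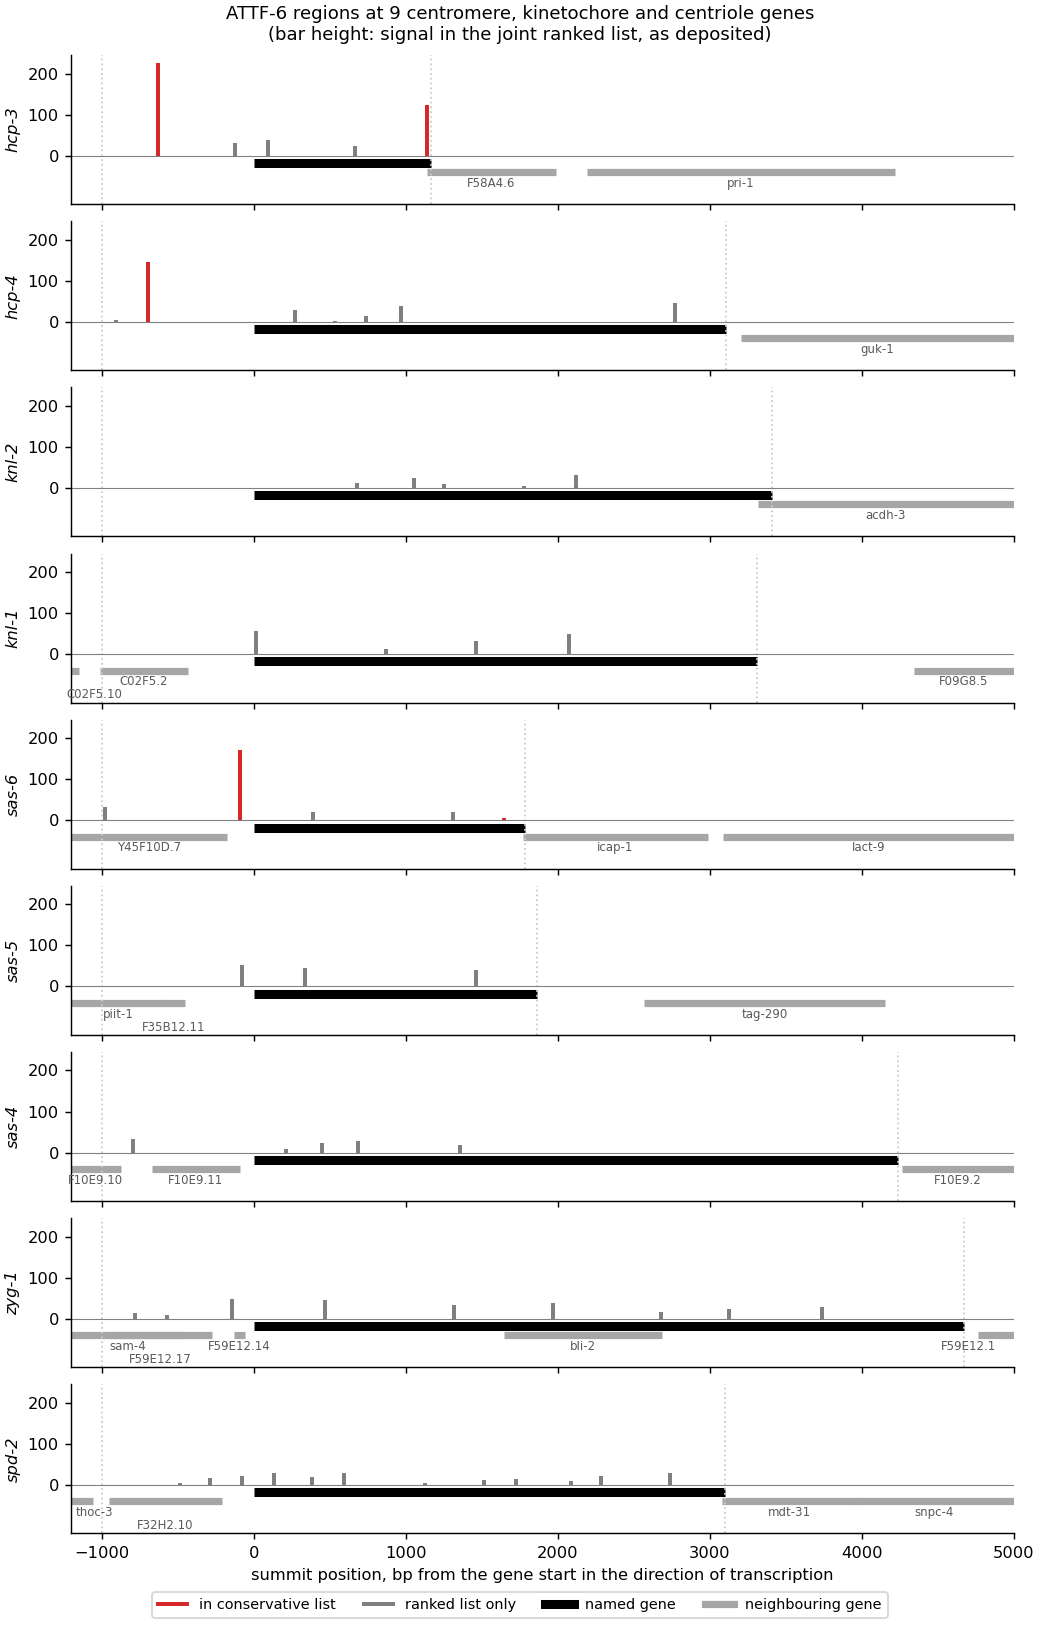
Summits of the joint ranked list around the 9 genes, by position from the gene start in bp (x axis) and by deposited signal (bar height, y axis); red bars are in the conservative list, grey bars are not, and dotted lines bound the window. The tallest bars of hcp-3, hcp-4 and sas-6 (226, 146 and 172) lie upstream of the start, and no bar of the other 6 genes is above 55.6.

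At the centromere genes, hcp-3 had the highest signal of the 9 genes and hcp-4 a call in both replicates, while knl-2 was close to the median of all genes. The gene hcp-3 (WBGene00001831, chrIII:9615306-9616470, minus strand) had 2 conservative summits, 1 upstream and 1 at its 3′ end. The upstream summit at 9617099 lay 629 bp before the start in intergenic sequence and had a joint signal of 226, which placed it at rank 187 of the 2134 conservative regions. Its signal was 113 in the list of replicate 1, at rank 239, and 130 in that of replicate 2, at rank 165. Both replicates called it, with summits 655 and 652 bp upstream. By strongest region, hcp-3 was gene 110 of 15238, in the top 0.722%. The nearest other coding start, that of hlh-11, a gene for a helix-loop-helix protein, was 2612 bp away. The nearest start of any kind, that of the piRNA gene 21ur-9360, was 813 bp away.

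The other hcp-3 summit, at 9615332, lay 1138 bp past the start, where the 3′ UTRs of hcp-3 and of the convergent gene F58A4.6 overlap. The 2 genes share 27 bp there. The start of F58A4.6 was 850 bp from the summit and thus nearer than that of hcp-3. The joint signal was 123, at rank 445 of the conservative list. Replicate 1 gave it 73.2 and replicate 2 gave it 50.9, and both had a called region that overlapped it. The replicate 2 summit was 1202 bp from the start, just past the end of the 1165 bp gene. The 3 further ranked regions of hcp-3 had signals from 23.6 to 36.9.

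The gene hcp-4 (WBGene00001832, chrI:3862833-3865938, minus strand) had 1 conservative summit, at 3866635 and 697 bp upstream of its start, with a joint signal of 146 and rank 345. Its signal was 79.2 in replicate 1 and 68.2 in replicate 2, each a call of that replicate's own. The site lies between divergent genes whose starts are 1603 bp apart, and it is 906 bp from the start of pgk-1, which encodes the glycolytic enzyme phosphoglycerate kinase. The nearest start was therefore that of hcp-4. The highest of its 6 other ranked regions was 46.6, inside the gene. A window of 500 bp upstream would leave hcp-4 without a call.

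The loading factor gene knl-2 (WBGene00019432, chrI:6460878-6464286, plus strand) had no summit in any thresholded list. Its strongest region lay in an intron 2118 bp past the start, with a joint signal of 32.6 and a global IDR of 0.335. Replicate 1 gave it 17.8 and replicate 2 gave it 15.2. By strongest region knl-2 was gene 7434 of 15238.

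At the outer kinetochore, knl-1 (WBGene00002231, chrIII:8250632-8253943, plus strand) was the gene just outside the threshold. Its strongest summit was 15 bp past its start, in coding sequence, with a joint signal of 55.6 and a global IDR of 0.0104. The signal was 28.2 in replicate 1 and 29.8 in replicate 2, and neither called it. The member region just inside the threshold was the weaker one of sas-6, at a global IDR of 0.00813. The start nearest to the knl-1 summit after its own was that of C02F5.2, 1028 bp away.

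Among the centriole genes, sas-6 alone had a conservative summit, sas-5 was called in 1 joint list, and sas-4, zyg-1 and spd-2 were called in none. The gene sas-6 (WBGene00012888, chrIV:13786945-13788731, minus strand), which encodes the self-assembling protein of the inner centriole scaffold, had its summit at 13788819 with a joint signal of 172, rank 270 of the conservative list. Replicate 1 gave 116 and replicate 2 gave 67.2, and both called it at almost the same base, 88 and 86 bp upstream of the start. It stood at rank 229 of the ranked list of replicate 1 and at rank 429 of that of replicate 2.

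The sas-6 summit cannot be assigned to 1 gene. It lies 88 bp from the start of sas-6 and 88 bp from that of the divergent gene Y45F10D.7, whose starts are 176 bp apart. The gene also starts within the right piRNA-rich region of chromosome IV, from 13500001 to 17250000, where 43.3% of the 464 protein-coding genes had a conservative summit in the window. It was the 1 gene of the 9 in that region. Without genes of that region, 2 of the remaining 8 genes had a conservative summit, beside 1068 of the remaining 19509 protein-coding genes, or 5.47%. The part of this location in the sas-6 call was not tested.

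A second conservative summit of sas-6, at 13787086 in coding sequence 1645 bp past the start, had a joint signal of 4.72 and stood at rank 2115 of 2134. Neither replicate called it, with signals of 28.1 and 33.2 at summits beyond the end of the gene. Its region overlapped a stronger one with a signal of 57.8 whose summit was 66 bp past the gene end, and the start of the downstream gene icap-1 was 125 bp away.

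The gene sas-5 (WBGene00009385, chrV:11610737-11612596, plus strand) encodes the partner that brings SAS-6 to the new centriole. Its strongest summit, 75 bp upstream of the start, had a joint signal of 51.2 and a global IDR of 0.0174. Replicate 1 gave 34.5 at an IDR of 0.0162 and replicate 2 gave 23.7 at an IDR of 0.284. These IDR values come from each replicate's own ranked list. They cannot be read as recurrence between the replicates or set against the joint value. Neither replicate called it on its own. The nearest other coding start, of piit-1, was 513 bp away on the opposite strand.

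The gene zyg-1 (WBGene00006988, chrII:5649748-5654422, plus strand) encodes the kinase that starts centriole duplication. Its strongest summit was 142 bp upstream of the start, with a joint signal of 49.2 and a global IDR of 0.0692. Replicate 1 gave 36.8 and replicate 2 gave 19.7, with no call in either. In replicate 2 a region inside the gene, 1373 bp past the start, was slightly higher at 20.6. The strongest joint summit lay 136 bp from the start of the divergent gene F59E12.17 and 86 bp from that of a non-coding RNA gene, F59E12.14. Both starts were nearer to it than that of zyg-1.

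The gene sas-4 (WBGene00004726, chrIII:8314349-8318588, minus strand) had its strongest summit 792 bp upstream, with a joint signal of 33.7 and a global IDR of 0.287. Replicate 1 gave 17.8 and replicate 2 gave 16.3. Another coding gene, F10E9.11, starts 120 bp from that summit and so lies nearer to it than sas-4.

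The gene spd-2 (WBGene00004953, chrI:8966985-8970081, minus strand), whose product begins both centriole duplication and the growth of the material around the centriole, had the lowest value of the 9. Its strongest summit, in an intron 136 bp past the start, had a joint signal of 29.5. Replicate 1 gave 17.5 and replicate 2 gave 13.0. The gene had 12 ranked regions, more than any of the other 8, and its lowest global IDR was 0.271. The replicates did not share a strongest place: replicate 1 had 28.3 at 2757 bp past the start and replicate 2 had 18.3 at 544 bp past it.

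In descending order of joint signal the genes were hcp-3, sas-6, hcp-4, knl-1, sas-5, zyg-1, sas-4, knl-2 and spd-2. Within each replicate, the 3 called genes were above 67 and the other 6 below 37 at these regions. The order among the 3 called genes was not the same in both: sas-6 was highest in replicate 1 at 116 and hcp-3 in replicate 2 at 130. Neighbours in the order cannot be told apart beyond the spread, because 2 replicates whose lists were made separately give no error on a common scale. The 6 genes without a call had a median joint signal of 41.5, beside 32.2 for all 15238 genes with a region. Their median window was 4360.5 bp, beside 3027 bp for all genes. The median was 88.0 for all 1269 genes with a conservative summit, a gap that follows in part from grouping genes by call. Depth is unknown, so a low value does not show that ATTF-6 is absent from a gene.

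**Figure D2:**
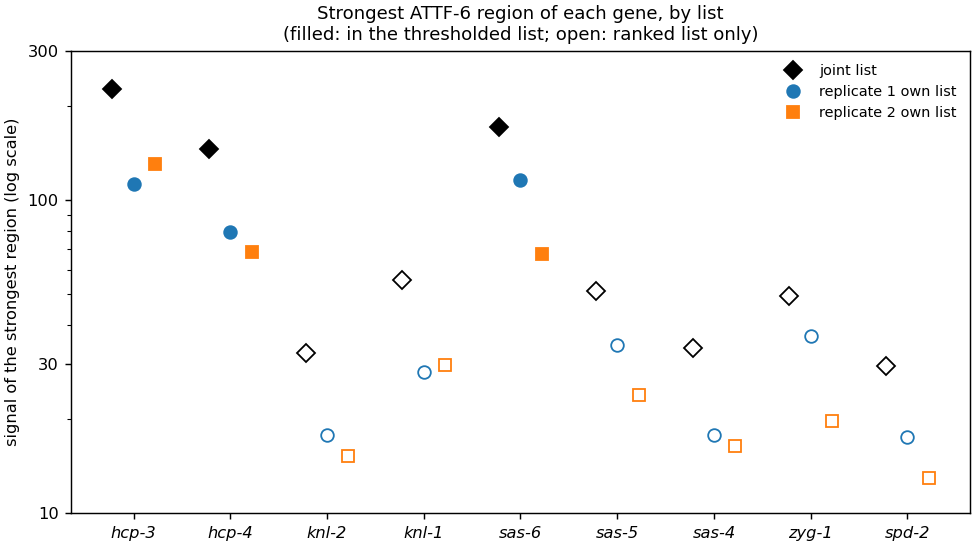
Deposited signal of each gene's strongest joint region (diamonds) and of the region overlapping it in the own list of replicate 1 (circles) and replicate 2 (squares), on a log axis; filled symbols are in the thresholded list and open ones are in the ranked list only. Filled symbols appear at hcp-3, hcp-4 and sas-6, and the replicate values of the other genes run from 13.0 to 36.8.

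In position, 6 of the 9 strongest summits were upstream of the start, and those of knl-1, knl-2 and spd-2 were inside the gene. At sas-6, sas-5, zyg-1, knl-1 and spd-2 the summit was within 150 bp of the start, and at hcp-3, hcp-4 and sas-4 it was more than 600 bp upstream. None of the 9 summits was near an annotated tRNA, snRNA, snoRNA or rRNA gene: the shortest distance to the start of one was 16776 bp, at spd-2. Leaving out summits within 500 bp of such starts therefore left all 3 called genes in place.

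Base composition differed from gene to gene. The sequence within 50 bp of the hcp-4 summit was 48.5% A+T, against 72.8% in equal windows centred 500 bp to either side. The window at sas-5 was 46.5% A+T with flanks of 60.9%, and that at zyg-1 was 50.5% with flanks of 68.3%. These 3 dipped by more than 10 percentage points. Summits were below their flanks by less at sas-6, with 57.4% and 60.4%, at knl-1, with 58.4% and 60.9%, and at sas-4, with 62.4% and 66.3%. The sas-4 summit lay on a slope and not in a dip: A+T was 43.6% at -100 bp and 79.2% at 140 bp (forward strand). In contrast, A+T exceeded that of the flanks at the upstream summit of hcp-3, at 60.4% with flanks of 58.9%. Nearer to that hcp-3 summit, however, A+T was 76.2% at -100 bp, 50.5% at 40 bp and 73.3% at 140 bp (forward strand). A+T also exceeded that of the flanks at the intron summits of knl-2 and spd-2, at 66.3% with 56.9% and at 69.3% with 59.9%. The 3′ summit of hcp-3 had the highest A+T content, 73.3% with flanks of 50.99%. In all, 6 of the 9 strongest summits were lower in A+T than their flanks, beside 1443 of all 2134 conservative summits, or 67.6%. Over those 2134 the median was 57.4% at the summit and 64.4% in the flanks.

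**Figure D3:**
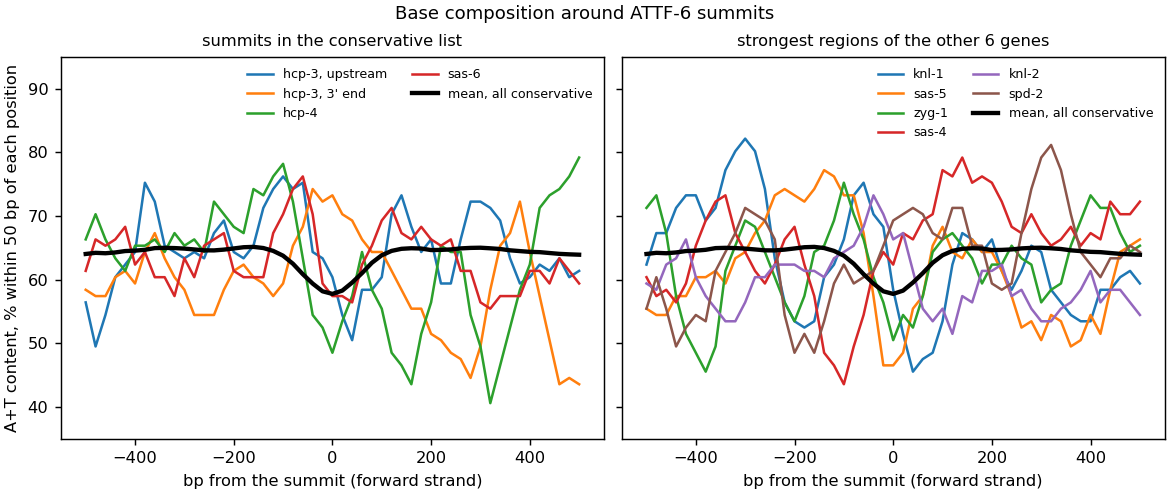
A+T content within 50 bp of each position (y axis, percent) against distance from the summit in bp (x axis, forward strand), for both conservative summits of hcp-3, that of hcp-4 and the stronger of sas-6 (left) and the strongest regions of the other 6 genes (right); the black line is the mean over all conservative summits. The mean dips at the summit, where hcp-4, sas-5 and zyg-1 lie between 46.5% and 50.5% and the 3′ summit of hcp-3 is at 73.3%.

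Short sequences were counted on both strands within 100 bp of each summit. The string GCGCG, which was added after the summit sequences had been read, was in 7 of the 9 strongest windows, with knl-1 and spd-2 as exceptions. Of those 9 windows, the ones of the 6 genes without a call are not conservative summits. Among the 5 conservative windows of the 9 genes, GCGCG was in 3. These were the upstream one of hcp-3, that of hcp-4 and the stronger one of sas-6. Over all genes, GCGCG was in 24.2% of conservative summit windows and 7.61% of their flanks. It was in 10.3% of stretches of the same length directly upstream of protein-coding starts. Since the string was picked from these windows, its count in them is a description only. The E2F-type string TTTCGCGC, which contains CGCGC, was in the hcp-3 window alone and in 3.0% of conservative windows, 0.633% of flanks and 0.906% of promoters. A second E2F-type string, TTTCCCGC, was in the hcp-4 window alone and in 2.11% of conservative windows, 1.27% of flanks and 1.09% of promoters. A match is a run of letters and shows no binding of any factor.

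The cell-cycle type string TTTGAA was in 5 of the 9 windows, those of hcp-3, hcp-4, sas-4, spd-2 and zyg-1, and TTCGAA in 3, those of hcp-4, sas-4 and spd-2. Both are common: TTTGAA was in 41.1% of conservative windows, 46.5% of flanks and 50.1% of promoters, and TTCGAA in 14.2%, 13.5% and 12.4%. The A/T strings AAATTT and AATATT were in 5 and 2 of the 9 windows, and in 39.3% and 21.4% of conservative windows. The string GAGAG was in 2 windows, those of hcp-3 and zyg-1, and in 29.5% of conservative windows. Among the 5 conservative windows of the 9 genes, TTTGAA was in 3, TTCGAA in 2, AAATTT in 4, AATATT in 2 and GAGAG in 1.

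The hcp-3 region and the cpar-1 stretch printed above allow a comparison of 2 centromeric histone genes at related sequence. The alignment took in sequence just outside the called hcp-3 region: within 100 bp of its summit, hcp-3 aligned with the cpar-1 stretch over 181 bp, gaps included, with 80.1% identity. In cpar-1 the stretch lies 318 to 152 bp upstream of the start. It has 1 place of CGCGC, where the hcp-3 region has 5 places with overlapping ones counted separately. No joint ranked region overlapped it. Replicate 1 alone had a signal of 34.9 there and replicate 2 alone 24.2, against 113 and 130 at hcp-3, and neither replicate called it. Those values at cpar-1 were close to the medians of the 9 genes. The median of their strongest signal in the window was 34.5 in replicate 1 and 23.7 in replicate 2. In the joint ranked list, by contrast, the strongest region within the cpar-1 window was 19.5. That was the lowest joint value among the cell division genes with a region. None of the strongest regions of hcp-4, knl-1, knl-2, sas-4, sas-5, spd-2 and zyg-1 had a second match in the genome. The window of sas-6 matched a 41 bp stretch in an intron of Y37A1A.4.

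The genes most like hcp-3 in level were sought over all protein-coding genes, by the summed absolute log2 difference of the strongest signal in the own ranked lists of the 2 replicates. They were Y54B9A.1, with a sum of 0.0734 and signals of 110 and 127, frm-7, with 0.121 and signals of 117 and 137, and Y67A10A.7, with 0.163 and signals of 106 and 123. The last lies in the right piRNA-rich region of chromosome IV. The measure rests on 2 values per gene.

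The wider machinery of cell division was counted over 71 genes in 8 lists, 62 of them beyond the 9 genes. Of those 62, 19 had a conservative summit, or 30.6%, beside 6.35% of all protein-coding genes. In both replicates' own lists 10 were called, or 16.1%, beside 2.65% of all protein-coding genes. The median strongest joint signal of the 62 was 48.7 over the 60 with a region, beside 51.2 for the 9 genes. The median window of the 62 was 3763 bp. None of the 62 starts in the right piRNA-rich region. These lists were drawn up with earlier results of the same data known.

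**Figure D4:**
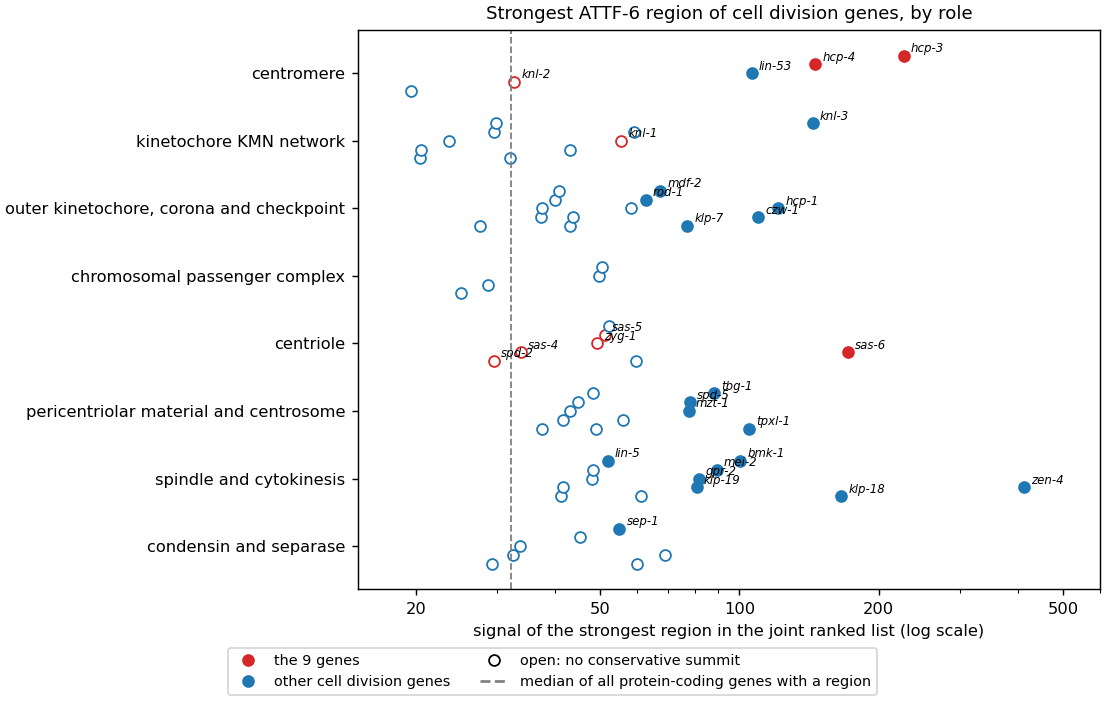
Signal of the strongest joint ranked region (x axis, log scale) of 69 cell division genes with a region, grouped by role; red marks the 9 genes, filled symbols have a conservative summit, and the dashed line is the median of all protein-coding genes with a region. The highest value is that of zen-4 at 412, and the chromosomal passenger genes hold no filled symbol.

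At the centromere the other called gene was lin-53, which encodes a histone-binding protein that helps to deposit HCP-3. Its summit was 234 bp upstream of the start with a joint signal of 106, at 55.6 in replicate 1 and 53.4 in replicate 2. It was also 233 bp from the start of nra-2. With hcp-3 and hcp-4, 3 of the 5 centromere genes were called. In the KMN network, which joins KNL-1 with the MIS-12 and NDC-80 complexes, knl-3 was the 1 called gene of 10. Its summit had a joint signal of 144, at 68.1 in replicate 1 and 76.7 in replicate 2. That summit lay in the 5′ UTR of T10B5.3, whose start was 215 bp away and thus nearer than that of knl-3, at 427 bp.

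Of the 13 outer kinetochore, corona and checkpoint genes, 5 were called. The gene hcp-1, for a CENP-F-like protein, had 121, czw-1, for the ZW10 homologue, had 110, and klp-7, for a microtubule-depolymerising kinesin, had 77.2. The checkpoint gene mdf-2 had 67.5 and rod-1, for another corona protein, had 62.7. The first 3 were called by both replicates alone and the last 2 by neither. None of the 4 chromosomal passenger genes was called, and their median was 39.2.

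Of the 8 centriole genes only sas-6 was called, and sas-7, sas-1 and hyls-1, which complete that list, had no conservative summit. Of the 12 pericentriolar and centrosome genes 4 were called: tpxl-1, the activator of Aurora A, at 105, tbg-1, for gamma-tubulin, at 88.3, spd-5, for the main scaffold of the material, at 78.1, and mzt-1, for a small partner of gamma-tubulin, at 77.7. Both replicates alone called tpxl-1 and tbg-1, replicate 2 but not replicate 1 called spd-5, and replicate 1 but not replicate 2 called mzt-1. The summit of mzt-1 was 15 bp from the start of enu-3.3 and that of tbg-1 was 208 bp from the start of rpac-19, both nearer than the named gene.

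The 12 spindle and cytokinesis genes had the most calls, 7. The gene zen-4, for the kinesin of centralspindlin, had a joint signal of 412, the highest of all 71 genes, with 225 in replicate 1 and 192 in replicate 2. A short RNA gene starts 68 bp from that summit. The meiotic spindle kinesin gene klp-18 had 166, with 83.6 in replicate 1 and 83.5 in replicate 2. The others were bmk-1, for a bipolar spindle kinesin, at 100.3, mei-2, for a subunit of the severing enzyme katanin, at 89.3, and klp-19, for a chromosome-bound kinesin, at 80.9. The spindle-positioning genes gpr-2 and lin-5 had 81.6 and 51.9. Both replicates alone called zen-4, klp-18 and bmk-1, replicate 1 but not replicate 2 called mei-2, replicate 2 but not replicate 1 called gpr-2 and klp-19, and neither called lin-5. Of the 7 condensin and separase genes, sep-1, the separase gene, was called, at 55.0, though by neither replicate alone. Of the 19 called genes outside the 9, 13 had the summit upstream of the start and 2, zen-4 and mdf-2, had it within 500 bp of the start of a short RNA gene. At 8 of the 19, lin-53, knl-3, tbg-1, mzt-1, bmk-1, gpr-2, klp-19 and sep-1, the strongest summit was nearer to the start of another coding gene. The bmk-1 summit was 155 bp from the start of coh-3 and 283 bp from its own, that of gpr-2 278 bp from rgr-1 and 288 bp from its own, and that of sep-1 151 bp from nefr-1 and 405 bp from its own. The klp-19 summit, in its 3′ UTR, was 3408 bp from the start of pgm-2 and 4472 bp from its own.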

How the data were processed

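ATTF-6 ChIP-seq regions came from 7 deposited lists on ce11: a conservative and another thresholded list and a ranked list that pool both samples, and a thresholded and a ranked list of each replicate. The replicate numbers are those of the labels. The signal values were made by the authors and used as deposited. The deposited ranked lists give the global IDR as −log10, which was converted back to IDR. The aligner, the caller and the read totals were not given in the sources used here, so depth is unknown. Per the deposited notes the thresholded lists also derive from a further file of unstated content. Region ends lay within the chromosome lengths of WBcel235, the same assembly.

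Summits, counted from 1, were assigned to Ensembl release 115 genes from 1000 bp upstream of the start to the gene end, and a summit can count for more than 1 gene. A replicate's value at a joint region is that of its strongest own ranked region overlapping it by 1 bp or more. A+T content was taken within 50 bp and motifs within 100 bp of a summit, and flanks were centred 500 bp to either side. Matches elsewhere in the genome were sought with blastn 2.17.0 at an expect value of 1e-05. The right piRNA-rich region joins neighbouring bins of 250000 bp with at least 100 piRNA genes. Window assignment was tested on simulated data. Python 3.11.15, numpy 2.4.6, pandas 2.3.3 and matplotlib 3.10.9 were used.

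The members, the 8 lists, the motifs and the piRNA-rich region were chosen with earlier results of these data known. Text names all 9 genes, every list gene with a conservative summit, the nearest other genes, and the 3 genes nearest to hcp-3 in level. Genes outside this rule, such as cpar-1, were named after their values were seen. With 1 group of 2 replicates, and members selected on the readout, no test was run. Alternatives changed the threshold, list, window, overlap, assignment and replicate.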

Additional observations from a re-analysis of the deposited data

How the results depend on the processing

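The count of 3 called genes among the 9 was 5 at a global IDR of 0.05, with knl-1 and sas-5 added, and 4 in the other joint list. It was 2 with 500 bp upstream, without hcp-4, and 2 without genes of the right piRNA-rich region, without sas-6, a setting added after the data were seen. It was 3, with the same genes, under the remaining settings: an IDR of 0.001, promoters only, 2000 bp upstream, any overlap, nearest start (where sas-6 ties), short RNA starts left out, and either replicate left out. The background of 1269 genes was 654 at an IDR of 0.001, 2202 at 0.05, 790 in promoters only, and 717 to 817 with a replicate left out. It was 964 by nearest start only, 1096 with 500 bp upstream and 1578 with 2000 bp upstream. With any overlap it was 1527, with short RNA starts left out 1052, and in the other joint list 1352. The 19 other division genes were 12 at an IDR of 0.001 and 12 by nearest start only. The median A+T content of the 5 conservative summits was 59.4% within 50 bp, 60.8% within 25 bp, 62.7% within 100 bp, and 57.4% to 58.4% at the summits of 1 replicate. Motif matches were counted here over the 5 conservative summit windows, not over the 9 strongest windows. A match is a window that holds a given string. The 7 strings fixed first gave 14 matches within 100 bp and 16 within 150 bp. With GCGCG added there were 17 within 100 bp. With a replicate left out the signal was 113 to 130 at hcp-3, 68.2 to 79.2 at hcp-4 and 67.2 to 116 at sas-6, from lists made separately. The cause of these shifts was not tested. No paired analysis was possible because the samples form 1 group. With unknown depth, low signals do not show absence.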
